A study of Mus musculus with 4 samples.

Results

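The genes examined were 10 RNA-binding proteins that control splicing in the heart, *Rbm20*, *Rbm24*, *Rbfox1*, *Rbfox2*, *Mbnl1*, *Mbnl2*, *Celf1*, *Celf2*, *Ptbp1* and *Qk*. They were chosen by name, and all 10 were found among the 23337 gene symbols of each library. RNA-seq was done on hearts of C57BL6/J mice in 4 groups, with 1 library per group made from the pooled RNA of 5 mice, males and females together. The controls were PIMT fl/fl mice, which carry loxP sites around exons 3 and 4 of the PIMT gene and no Cre, aged 2 or 6 months. Mice termed csPIMT-/-, also aged 2 or 6 months, had these floxed alleles together with an α-MyHC-Cre transgene, which deletes these exons in cardiomyocytes from late embryonic life, so other cells of the heart kept the gene. No group had a replicate library, and the spread between mice or pools could not be measured.

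Pre-mRNA splicing joins exons in different combinations, and regulators of this kind bind short motifs in or beside an exon and so raise or lower its inclusion. In heart muscle RBM20 controls titin splicing, RBM24 promotes inclusion of sarcomeric exons, and the MBNL and CELF families act in opposite directions on many exons that switch after birth. RBFOX proteins bind UGCAUG elements, QK binds ACUAA-like elements, and PTBP1 represses many exons that are used in differentiated cells. PIMT, listed as *Tgs1*, adds the trimethylguanosine cap to small nuclear RNAs of the spliceosome. The values here are RNA levels per gene. They do not show which exons were used, and in bulk hearts fewer cells of a type cannot be told apart from less RNA per cell.

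Promoter sequence is given for 3 of the genes as examples. *Rbm24* and *Mbnl2* were among the 8 genes below control at both ages, and *Ptbp1* was above it at both but did not pass the test described further on. The sequences were not compared between low and high genes. Each is the 250 bases before a RefSeq start (GRCm38.p6), read 5′ to 3′ on the strand of the gene, with the GC box GGGCGG or its complement CCGCCC in capitals where it occurs. That of *Rbm24* lies at chr13:46418050-46418299 on the plus strand, that of *Mbnl2* at chr14:120275419-120275668 on the plus strand and that of *Ptbp1* at chr10:79854182-79854431 on the plus strand.
Rbm24: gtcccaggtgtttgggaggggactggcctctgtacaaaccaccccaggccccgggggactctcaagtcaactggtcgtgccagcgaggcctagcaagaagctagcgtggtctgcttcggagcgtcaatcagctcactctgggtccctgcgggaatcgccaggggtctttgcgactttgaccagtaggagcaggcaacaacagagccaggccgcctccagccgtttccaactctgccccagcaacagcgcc
Mbnl2: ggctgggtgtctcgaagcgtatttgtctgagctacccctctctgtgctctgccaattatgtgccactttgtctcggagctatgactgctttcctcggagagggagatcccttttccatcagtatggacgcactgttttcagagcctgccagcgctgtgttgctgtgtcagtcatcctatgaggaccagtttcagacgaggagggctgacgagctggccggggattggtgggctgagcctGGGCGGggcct
Ptbp1: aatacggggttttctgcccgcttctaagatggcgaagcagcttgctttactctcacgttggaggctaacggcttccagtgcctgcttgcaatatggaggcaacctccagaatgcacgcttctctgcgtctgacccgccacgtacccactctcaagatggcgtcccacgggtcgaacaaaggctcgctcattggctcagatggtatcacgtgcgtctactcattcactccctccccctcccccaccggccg
The GC content of these 250 bases was 62.4% for *Rbm24*, 57.2% for *Mbnl2* and 57.6% for *Ptbp1*, against a median of 52.4% over 32851 mouse promoters. RefSeq promoters were matched for 8 of the 10 genes, with 14 starts in all. Counting matches on both strands, GGGCGG occurred at 6 of these 14 starts and in 32.7% of all promoters, and the E-box CANNTG at 8 of 14 and in 66.2%. The nuclear receptor half-site AGGTCA occurred at 1 of 14, a start of *Celf2*, and in 14.0% of all promoters. No MEF2 site was found at the 14 starts, and 2.92% of all promoters held one. A match of letters is a description and shows no binding.

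Between 29823073 and 40705783 reads fell on genes per library. The targeted gene *Tgs1* had 580 and 816 normalised counts in the controls of 2 and 6 months and 160 and 162 in csPIMT-/- hearts, so both csPIMT-/- libraries were below both controls (log2 difference -2.09, SE 0.31, limma adjusted p = 0.018). Reads from exons outside the floxed pair still count towards *Tgs1*. With the GC trend described further on subtracted, the *Tgs1* ratios of csPIMT-/- over control were 0.602 at 2 months and 0.495 at 6 months. Its log2 difference was then -0.86 (SE 0.29, limma adjusted p = 0.17), which did not pass. Nor did it pass without a mean trend of the variance (limma adjusted p = 0.065). All 9 cardiomyocyte markers were detected in every library, and their summed level in csPIMT-/- hearts was 1.04 times that of control at 2 months and 0.860 times at 6 months. Single markers went both ways, with 4 of the 9 lower in csPIMT-/- hearts at 2 months and 5 at 6 months. *Pln* had ratios of 0.389 and 0.257, and *Mb* of 1.55 and 1.42. The sums of other marker lists differed more between libraries. In the order 2-month control, 2-month csPIMT-/-, 6-month control and 6-month csPIMT-/-, 5 atrial markers summed to 3896, 133361, 47606 and 31494 normalised counts, 5 brown fat markers to 1908, 16328, 3857 and 4637, and 7 leukocyte markers to 7664, 22947, 19784 and 31352. *Cidea* held 1889, 2561, 1015 and 2600 of the brown fat counts, and *Cfd* 1.73, 8586, 1955 and 1591. At 6 months 4 of the 5 brown fat markers were lower in csPIMT-/- than in control hearts, although their sum was higher. Of the leukocyte markers 1 was lower at 2 months and 2 at 6 months, *Ptprc* both times (ratios 0.533 and 0.443). Of the atrial markers 1, *Nr2f2*, was lower at 2 months (ratio 0.539). The 6 lung markers summed to 1.73, 1218, 9.67 and 18.7, and 5 of them were at 0 in the 2-month control. The 7 fibroblast markers summed to 285894, 195330, 149112 and 206375, the 7 endothelial markers to 70177, 51871, 53216 and 56158, the 5 smooth muscle markers to 54664, 67321, 40639 and 30754, and the 6 neuron and glia markers to 836, 1646, 898 and 4738. The female transcript *Xist* had 930, 5166, 29152 and 12357 reads and the Y-linked *Uty* 2605, 71, 341 and 164, so the pools differed in the RNA contributed by each sex. The part of these differences in the values below was not tested.

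Of the 10 splicing regulators, 9 had a lower normalised count in the csPIMT-/- library than in its control at 2 months, and 8 did at 6 months. *Ptbp1* was higher at both ages, and *Celf2* was lower at 2 months and level at 6 months. The ratio of csPIMT-/- over control was below 0.5 for 6 genes at 2 months, where 22.5% of all 15152 genes with at least 10 reads were below 0.5, and for 3 genes at 6 months, where 24.9% of 15218 genes were. No member was above 2 at either age (17.3% and 16.9% of all genes). The 10 genes had median ratios of 0.460 and 0.589 at the 2 ages, where all genes had 0.997 and 1.0. The 8 genes that were below 1 at both ages compare with 39.8% of 14781 genes, and the 3 below 0.5 at both ages (*Rbfox1*, *Mbnl1* and *Qk*) with 16.0%. Each ratio is given with a 95% Clopper-Pearson interval, which covers the counting error of the reads only. In the control pools alone none of the 10 genes differed between 2 and 6 months by more than 2-fold, the largest ratio being 1.77 for *Rbfox1* and the smallest 0.869 for *Ptbp1*. Over all genes 4.65% were below 0.5 and 9.01% above 2 in that comparison, and 4.93% and 7.22% after the GC trend described further on was subtracted, again with 0 of the 10.

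**Figure D1:**
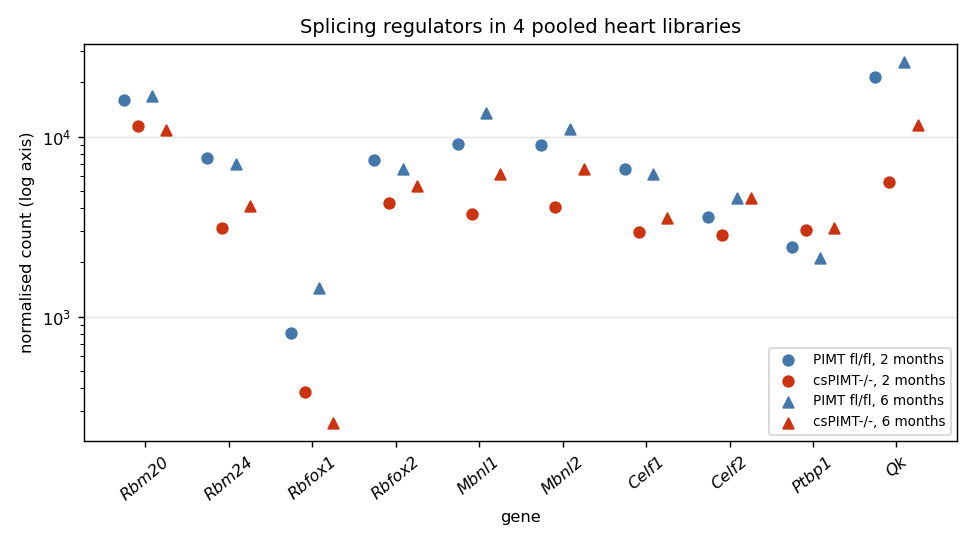
Normalised counts (log axis) of the 10 splicing regulators in the 4 libraries, 1 point per library, with circles for 2 months, triangles for 6 months, blue for PIMT fl/fl and red for csPIMT-/-. Both red points lie below both blue points for 8 genes, and both lie above for *Ptbp1*.

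The 2 regulators best known from cardiomyocytes were lower in csPIMT-/- hearts by different amounts. *Rbm20*, the titin splicing factor (chromosome 19), had 15896 normalised counts in the 2-month control, 11457 in 2-month csPIMT-/-, 16775 in the 6-month control and 10830 in 6-month csPIMT-/- hearts. Its ratios were 0.721 (95% interval 0.703 to 0.739) at 2 months and 0.646 (0.630 to 0.661) at 6 months, both short of 2-fold. *Rbm24* (chromosome 13) had 7620, 3107, 7078 and 4119 normalised counts in the same order, with ratios of 0.408 (0.390 to 0.426) and 0.582 (0.560 to 0.605). The control pools differed by a ratio of 1.06 for *Rbm20* and 0.929 for *Rbm24*, which was less than the genotypes differed. These control pools also differed in age and in the RNA contributed by each sex, and 1 pair of pools measures no spread. Per kb of the longest transcript *Rbm20* was the most abundant of the 10 in both controls, at 3249 and 3429 normalised counts per kb.

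The RBFOX pair differed in time course. *Rbfox1* (chromosome 16), which in adult tissues is confined largely to muscle and neurons, had 812 normalised counts in the 2-month control, 381 in 2-month csPIMT-/-, 1439 in the 6-month control and 255 in 6-month csPIMT-/- hearts. The ratios were 0.469 (0.411 to 0.534) and 0.177 (0.154 to 0.203), the second being the lowest of the 10 at 6 months. Set against the younger control, 6-month csPIMT-/- hearts had a *Rbfox1* ratio of 0.314. *Rbfox2* (chromosome 15), the broadly expressed paralog, had 7440, 4265, 6572 and 5318 normalised counts, with ratios of 0.573 (0.551 to 0.596) and 0.809 (0.781 to 0.839). *Rbfox1* was therefore further below control at 6 than at 2 months and *Rbfox2* nearer to it, a difference that 1 library per group does not allow to be tested.

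Both Muscleblind genes, whose proteins act in the postnatal splicing switch and are sequestered by repeat RNA in myotonic dystrophy, were lower in csPIMT-/- hearts. *Mbnl1* (chromosome 3) had 9055 and 13469 normalised counts in the 2- and 6-month controls and 3722 and 6212 in csPIMT-/- hearts, with ratios of 0.411 (0.395 to 0.428) and 0.461 (0.448 to 0.475). *Mbnl2* (chromosome 14) had 8988 and 11070 in the controls and 4056 and 6596 in csPIMT-/- hearts, with ratios of 0.451 (0.434 to 0.469) and 0.596 (0.578 to 0.614). For both genes the 6-month pool was above the 2-month pool in each genotype. Set against the younger control, the 6-month csPIMT-/- library had ratios of 0.686 for *Mbnl1* and 0.734 for *Mbnl2*.

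The CELF pair, which opposes MBNL proteins on many exons, was unequal. *Celf1* (chromosome 2) had 6609 and 6172 normalised counts in the controls and 2936 and 3516 in csPIMT-/- hearts, with ratios of 0.444 (0.424 to 0.465) and 0.570 (0.547 to 0.594). *Celf2* (chromosome 2) had 3596 and 4567 in the controls and 2848 and 4567 in csPIMT-/- hearts, with ratios of 0.792 (0.752 to 0.833) and 1.0 (0.960 to 1.04). No difference in *Celf2* was detectable beyond counting error at 6 months.

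*Ptbp1* (chromosome 10), a repressor of exons used in differentiated cells, stood above control at both ages. It had 2441 and 2121 normalised counts in the controls and 3018 and 3098 in csPIMT-/- hearts, and the ratios were 1.24 (1.17 to 1.31) and 1.46 (1.38 to 1.54). *Qk* (chromosome 17), which encodes the Quaking protein and had the highest normalised count of the 10 in both controls, fell below control at both ages. Its values were 21554 and 25945 in the controls and 5609 and 11625 in csPIMT-/- hearts, with ratios of 0.260 (0.252 to 0.269) and 0.448 (0.438 to 0.458). The 2-month ratio of *Qk* was the lowest of the 10, and 7.02% of all genes had a lower one. Per kb of the longest transcript the control levels ran from 3249 and 3429 for *Rbm20* over 2522 and 3036 for *Qk*, 2469 and 2294 for *Rbm24*, 1616 and 1991 for *Mbnl2*, 1601 and 2382 for *Mbnl1*, 1077 and 952 for *Rbfox2*, 842 and 786 for *Celf1* and 770 and 669 for *Ptbp1* to 406 and 516 for *Celf2* and 265 and 470 for *Rbfox1*. Neighbours whose control values overlapped were *Mbnl1* with *Mbnl2*, *Mbnl1* with *Rbm24* and *Celf2* with *Rbfox1*. Per kb of all annotated exons *Rbm20* was again highest, and *Celf2* and *Rbfox1* again lowest.

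**Figure D2:**
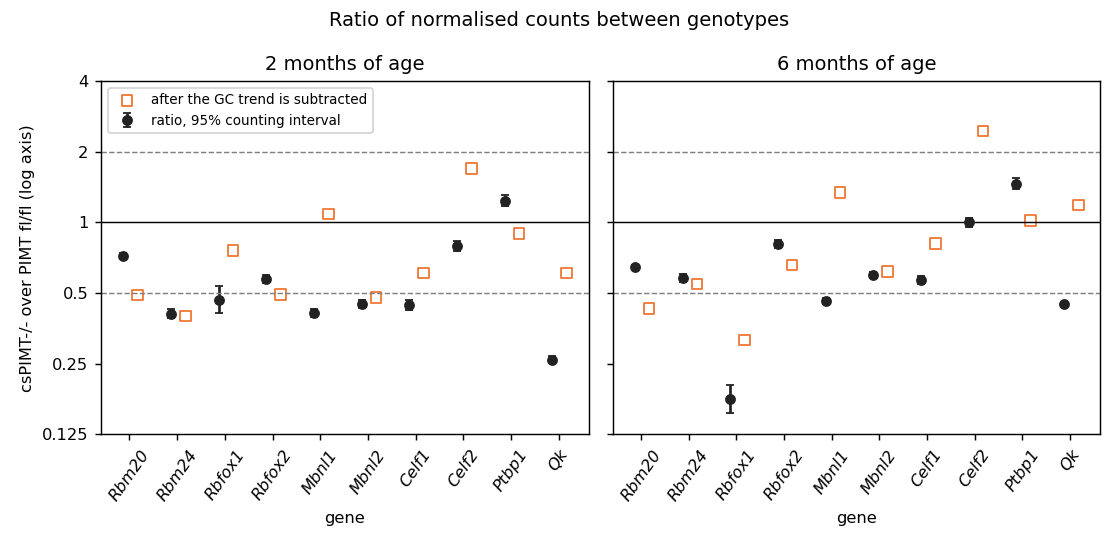
Ratio of csPIMT-/- over PIMT fl/fl (log axis) for each gene at 2 months (left) and 6 months (right), as filled points with 95% counting intervals and as open squares after the trend with transcript GC content was subtracted. At 2 months 6 filled points and 4 squares lie below 0.5, and at 6 months 3 points and 2 squares do, with the square of *Celf2* at 2.45.

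The genotypes were tested over both ages with limma on log2(normalised count + 1) of the 4 libraries, with age in the model. Of the 10 genes, 6 passed with lower levels in the csPIMT-/- libraries (limma adjusted p under 0.05) and 0 with higher levels, beside 17.5% lower and 11.0% higher of 14847 genes tested. *Qk* had a log2 difference of -1.55 (SE 0.27, limma adjusted p = 0.022) and *Mbnl1* of -1.20 (SE 0.20, limma adjusted p = 0.021). For *Rbfox1* the difference was -1.79 (SE 0.41, limma adjusted p = 0.034), for *Rbm24* -1.04 (SE 0.23, limma adjusted p = 0.032), for *Celf1* -0.99 (SE 0.21, limma adjusted p = 0.031) and for *Mbnl2* -0.95 (SE 0.22, limma adjusted p = 0.035). The difference did not pass the test for *Rbm20* at -0.55 (SE 0.21, limma adjusted p = 0.10), *Rbfox2* at -0.55 (SE 0.22, limma adjusted p = 0.12), *Celf2* at -0.17 (SE 0.21, limma adjusted p = 0.57) and *Ptbp1* at 0.43 (SE 0.21, limma adjusted p = 0.18). The fit had 1 residual degree of freedom, so the departure of the 4 pools from additive effects stood in for replicate error. Without a mean trend of the variance limma called 0 of the 10 (lowest adjusted p 0.076) and 0 of 14847 genes, with 6 of the 10 at an unadjusted p below 0.05, 3448 of all genes lower and 2517 higher. On the recovered reads edgeR and DESeq2 each called 6 of the 10 lower. Beside these, edgeR called 2521 lower and 1637 higher of 14847 genes, and DESeq2 2988 and 2190. Leaving out a library, in a fit without age, leaves 1 library in a genotype, so only effect sizes are given. The number of calls depended on the library left out. The log2 difference then ran from -2.20 to -1.38 for *Rbfox1*, -2.08 to -1.02 for *Qk* and -1.57 to -0.83 for *Mbnl1*. It ran from -1.24 to -0.83 for *Rbm24*, -1.30 to -0.60 for *Mbnl2* and -1.12 to -0.86 for *Celf1*.

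These ratios ran with the base composition of the transcripts. Across 14976 genes at 2 months the log2 ratio and the GC content of the longest transcript had a Spearman rho of 0.580, and across 15040 genes at 6 months of 0.607, over genes of the same 2 libraries. Transcript GC content of the 10 ran from 39.7% for *Mbnl1*, 41.1% for *Qk* and 42.1% for *Celf2* to 53.7% for *Ptbp1* and 54.9% for *Rbm20*. With the trend subtracted, 4 of the 10 were below 0.5 at 2 months, beside 11.5% of all genes with a GC value, and 2 at 6 months, beside 13.2%. None of the 10 was above 2 at 2 months, beside 14.9%. *Rbm20* moved away from 1, to ratios of 0.490, just under 0.5, and 0.430, and was the 1 gene of the 10 below 0.5 at both ages, beside 4.93% of 14614 genes. *Rbm24* had 0.399 and 0.547, *Mbnl2* 0.479 and 0.617 and *Rbfox2* 0.494 and 0.659. *Rbfox1* came to 0.759 and 0.316, and *Celf1* to 0.609 and 0.813.

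The genes with the lowest GC content moved upwards. *Mbnl1* changed side, to 1.09 and 1.34, and *Qk* came to 0.608 at 2 months and 1.18 at 6 months. *Celf2* came to 1.70 and 2.45, with 14.2% of all genes above 2 at 6 months, and 90.2% of genes had a lower adjusted ratio than *Celf2* at that age. *Ptbp1* came to 0.899 and 1.02.

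Some of these values depended on the GC measure. With the mean GC content of all annotated transcripts of a gene in place of that of the longest, a choice made after seeing the data, *Mbnl2* had ratios of 0.811 and 1.21 and so crossed 1 at 6 months. *Rbfox1* moved away from 1 under this measure, to 0.376 and 0.133, where the longest transcript had moved it towards 1. *Rbm24* had 0.312 and 0.421, and *Rbm20* 0.519 and 0.448. The genes below 0.5 at both ages were then *Rbm24* and *Rbfox1*, and not *Rbm20*, which also had 0.548 at 2 months after trends with GC content and length. The share of all genes below 0.5 at both ages is not available for this GC measure. *Celf2* stayed above 1, at 1.44 and 2.06.

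After subtraction of the trend with the longest transcript's GC content in the fit over both ages, none of the 10 had a limma adjusted p below 0.05, and the lowest was 0.095 for *Rbm20* (log2 difference -1.11, SE 0.19). The same fit called 0 genes lower and 0 higher of 14679. At an unadjusted p below 0.05 it had 4 of the 10 lower and 1, *Celf2*, higher, beside 12.4% and 13.7% of all genes. Between the 2 control libraries rho was -0.268. With 1 library per group, an effect of base composition on the libraries and an effect of genotype cannot be told apart.

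**Figure D3:**
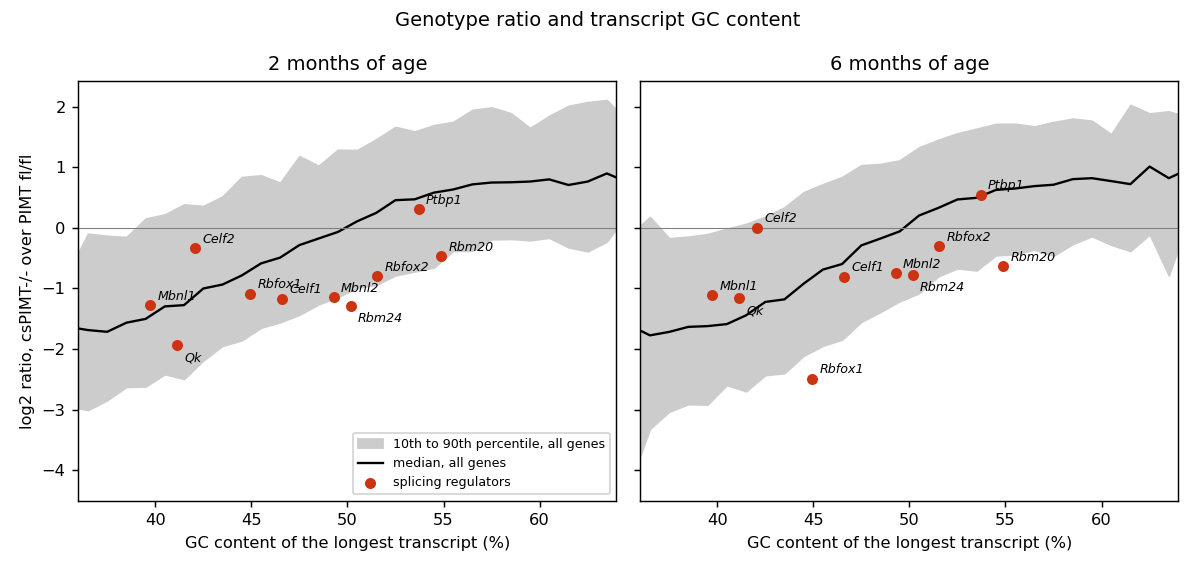
log2 ratio of csPIMT-/- over PIMT fl/fl against the GC content of the longest transcript at 2 months (left) and 6 months (right), with the median (line) and the 10th to 90th percentile (grey) of all genes per 1% of GC content and the 10 splicing regulators as red points. *Rbm20* lies under the median line at both ages, and *Celf2* above it.

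Within a library the share of a gene in the reads of a pair does not depend on the scaling of that library. *Celf1* took 64.8% (95% Clopper-Pearson interval 63.9 to 65.6) of the reads of *Celf1* and *Celf2* in the 2-month control and 50.8% (49.3 to 52.2) in 2-month csPIMT-/- hearts. At 6 months its share was 57.5% (56.6 to 58.4) in the control and 43.5% (42.4 to 44.6) in csPIMT-/- hearts. Both csPIMT-/- shares lay below both control shares. The GC content of the longest transcript was 46.6% for *Celf1* and 42.1% for *Celf2*. *Rbfox1* took 9.84% and 18.0% of the RBFOX pair's reads in the controls and 8.20% and 4.57% in csPIMT-/- hearts. Its transcript has 45.0% GC and that of *Rbfox2* 51.5%.

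*Mbnl1* kept near an equal part of its pair, at 50.2% and 54.9% in the controls and 47.9% and 48.5% in csPIMT-/- hearts. The neural PTBP paralog *Ptbp2* had 1408 and 1717 normalised counts in the controls and 599 and 1185 in csPIMT-/- hearts, and its difference over both ages did not pass (log2 difference -0.88, SE 0.27, limma adjusted p = 0.066). Its ratios turned from 0.426 and 0.690 to 1.78 and 2.66 when the GC trend was subtracted. The share of *Ptbp1* in the pair was therefore 63.4% and 55.3% in the controls and 83.4% and 72.3% in csPIMT-/- hearts. These transcripts lie far apart in GC content, at 53.7% for *Ptbp1* and 34.2% for *Ptbp2*. *Rbm38*, the paralog of *Rbm24*, had ratios of 0.952 (0.899 to 1.01) and 1.23 (1.16 to 1.31), which came to 0.562 and 0.705 after the GC trend. The share of *Rbm24* in that pair was 74.4% and 79.2% in the controls and 55.4% and 64.4% in csPIMT-/- hearts. Here the GC content was 50.2% for *Rbm24* and 61.5% for *Rbm38*.

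**Figure D4:**
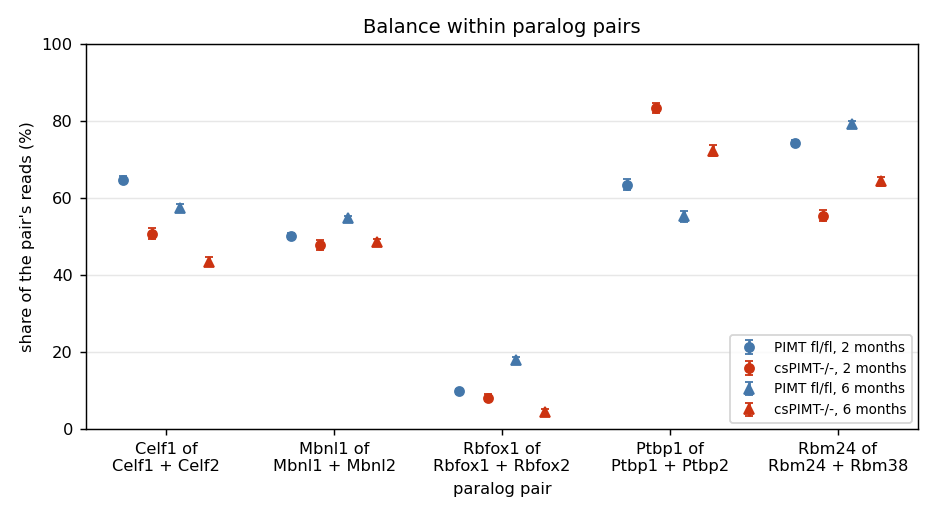
Share of the first gene in the summed reads of a pair of paralogs (percent, axis from 0) in each library, with 95% Clopper-Pearson intervals for counting error. The csPIMT-/- shares (red) lie below both control shares (blue) for *Celf1*, *Mbnl1*, *Rbfox1* and *Rbm24*, and above both for *Ptbp1*.

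Other paralogs were low or scarce. *Mbnl3* had 141 and 155 reads in the controls and 7 and 25 in csPIMT-/- hearts, and *Ptbp3*, listed as *Rod1*, had ratios of 0.331 and 0.516. Both were lower over the 2 ages, by limma adjusted p = 0.027 (log2 difference -3.01) for *Mbnl3* and 0.026 (log2 difference -1.27) for *Ptbp3*. They were the 2 of 5 tested paralogs, of 9 in the list, that passed, beside 17.5% of all genes lower. After the GC trend was subtracted *Ptbp3* had ratios of 0.941 and 1.58 and *Mbnl3* of 0.199 and 0.563.

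The wider families of splicing factors were also low. The limma counts below stand beside 17.5% lower and 11.0% higher of all genes, and after the GC trend the fit called 0 of 14679 genes. Of 35 further tissue splicing regulators 33 were tested, with 16 lower and 0 higher by limma, and the median ratio was 0.481 at 2 months and 0.569 at 6 months. Lowest by mean ratio, among genes with at least 100 reads in a library, were *Luc7l3*, *Fxr1* and *Rbm39*, with ratios at 2 months of 0.201, 0.209 and 0.195. *Srrm4* and *Khsrp* were highest by it, with ratios of 1.45 at both ages for *Srrm4* and of 1.15 and 1.36 for *Khsrp*. Among 10 tested SR proteins, which bind exonic enhancers, 6 were lower and 0 higher, and the median ratios were 0.413 and 0.517. *Srsf10* and *Srsf3* stood lowest, with ratios of 0.182 for each at 2 months and of 0.239 and 0.242 at 6 months, and *Srsf9* highest with 1.03 and 1.38. Of 21 hnRNP proteins, many of which act as splicing silencers, 13 were lower and 0 higher, with median ratios of 0.415 and 0.395 and *Hnrnpa3* lowest by the same rule at 0.158 and 0.241 and *Hnrnpl* highest at 1.14 and 1.34. After the GC trend was subtracted the medians were 0.717 and 0.930 for the tissue regulators, 0.725 and 0.839 for the SR proteins, 0.596 and 0.699 for the hnRNP proteins and 0.609 and 0.736 for the 10 cardiac regulators, against 1.01 for all genes at both ages. The 10 cardiac regulators thus lay in the range of these lists.

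**Figure D5:**
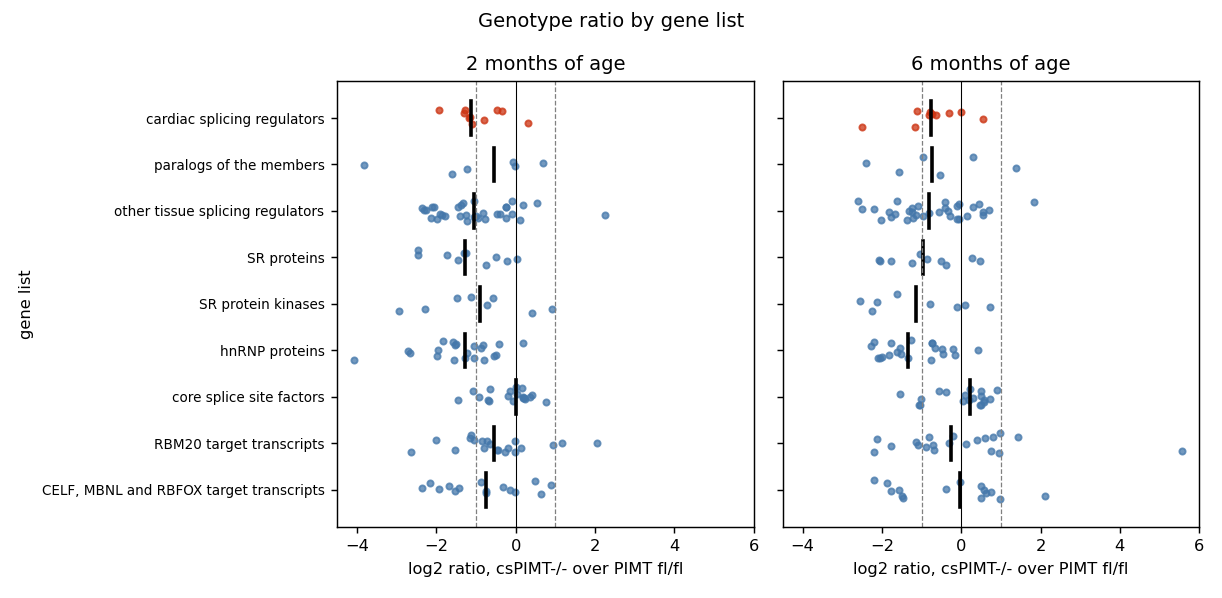
log2 ratio of csPIMT-/- over PIMT fl/fl by gene list at 2 months (left) and 6 months (right), 1 point per gene with at least 10 reads in either library, with a bar at the list's median and dashed lines at 2-fold. The 10 cardiac splicing regulators (red) have median ratios of 0.460 and 0.589, and the core splice site factors of 1.01 and 1.16.

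Transcripts known to be spliced under these regulators were given by their total level only. Of 20 RBM20 target transcripts 6 were lower and 2 higher by limma, beside 17.5% lower and 11.0% higher of all genes, with median ratios of 0.684 and 0.838. *Nexn* and *Trdn*, of the Z-disc and the calcium release complex, had the lowest ratios, at 0.160 and 0.230 for *Nexn* and 0.248 and 0.219 for *Trdn*. Titin, *Ttn*, had ratios of 0.572 and 0.291 and did not pass (log2 difference -1.29, limma adjusted p = 0.14). The 2 called higher, a share near that of all genes, were *Pdlim3*, with ratios of 2.27 and 2.69, and *Myh7*, the slow myosin heavy chain of the failing ventricle, with 4.18 and 47.2. Of 15 target transcripts of CELF, MBNL and RBFOX proteins 6 were lower and 0 higher, and by the same rule *Ktn1* was lowest at 0.225 and 0.219. After the GC trend was subtracted the medians were 0.889 and 1.10 for the RBM20 targets and 0.675 and 0.937 for the other list. *Nexn* then had ratios of 0.428 and 0.675, *Trdn* of 0.842 and 0.748, *Ttn* of 0.730 and 0.379 and *Ktn1* of 0.476 and 0.530. *Pdlim3* came to 4.44 and 6.05 and *Myh7* to 2.69 and 30.1.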

How the data were processed

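RNA of 5 hearts per group was pooled, and poly(A) libraries were sequenced as single 50 base reads. The authors trimmed adapters, removed poor and ribosomal reads, aligned to mm10 with STAR, counted with htseq-count (HTSeq 0.6.1p1 in the submitters' processing notes) on a UCSC annotation and used DESeq2. The deposited signal is a normalised read count per gene symbol. In every library 100% of values were whole multiples of the smallest value above 0 (tolerance 1e-06 reads), and dividing by it returned the reads, 29823073 to 40705783 per library.

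Ratios were quotients of the deposited normalised counts, where either library held 10 reads or more, with Clopper-Pearson intervals for counting error. Called meant below 0.5 or above 2. log2 ratios added 0.5 reads. Over both ages limma 3.58.1 was run on log2(value + 1) with age as a covariate and a mean trend of the variance, for genes with a value of at least 10 in at least 2 libraries, with Benjamini-Hochberg adjustment over all genes. The fold changes are on this scale. edgeR 4.0.16 (quasi-likelihood) and DESeq2 1.42.0 (Wald) were run on the recovered reads. Trends with GC content were lowess curves (span 0.3) on the longest transcript in GENCODE M21 (GRCm38, the same assembly as mm10), matched for 22873 of 23337 symbols. The scripts were tested on simulated counts.

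The members and gene lists were chosen with earlier results of these data known. Named were the 10 members, *Tgs1* and some genes of the marker lists. Of each further list up to 3 genes with the lowest and 3 with the highest mean log2 ratio were named, among those with at least 100 reads in a library. A gene that this rule names is not reported here. *Rbm38*, *Ptbp2* and *Ptbp3* fall under this rule as paralogs, and the split into pairs was made after values were seen. The reads come from directional libraries, but the strand setting of the counting is not given in the sources used here, and reads shared by paralogs may have been dropped or split. No sequencing batch or date is given, so nothing was compared within batches. Leaving out a library, other scalings, filters and pseudocounts and the trends above were the alternatives tried.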

Additional observations from a re-analysis of the deposited data

Results flagged for a closer look

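For 5 of the 10 splicing regulators the 6-month library lay on opposite sides of the 2-month library in the 2 genotypes, with both counting intervals clear of 1, as for 23.8% of 14600 genes. *Rbfox1* was higher at 6 months in controls, by a ratio of 1.77 (95% interval 1.63 to 1.92), and lower in csPIMT-/- hearts, at 0.669 (0.563 to 0.794). *Rbm20* went the same way by small amounts, at 1.06 (1.03 to 1.08) in controls and 0.945 (0.919 to 0.972) in csPIMT-/- hearts, but with size factors of the 2 control libraries alone its control ratio was 1.01 (0.988 to 1.03), which leaves 4 genes (24.2% of all genes; scalings added after seeing the data). The other three were lower at 6 months in controls and higher in csPIMT-/- hearts. *Rbm24* had ratios of 0.929 (0.901 to 0.958) and 1.33 (1.26 to 1.39), *Rbfox2* of 0.883 (0.856 to 0.911) and 1.25 (1.19 to 1.3), and *Celf1* of 0.934 (0.904 to 0.965) and 1.20 (1.14 to 1.26). After the GC trend was subtracted all 5 kept these sides, *Rbfox1* with 1.56 in controls and 0.649 in csPIMT-/- hearts. From the named genes of the further lists, *Pcbp1* and *Srsf4* were picked because their genotype ratios lay on opposite sides of 1 at the 2 ages. The share of all genes with such ratios is not available. *Pcbp1*, a poly(C)-binding protein, had a ratio of csPIMT-/- over control of 0.842 (0.791 to 0.895) at 2 months and 1.62 (1.53 to 1.71) at 6 months. The SR protein gene *Srsf4* had ratios of 0.859 (0.781 to 0.945) and 1.20 (1.09 to 1.32). Both lay below 1 at both ages once the GC trend was subtracted, *Pcbp1* at 0.522 and 0.990 and *Srsf4* at 0.657 and 0.873. None of these differences was tested, since each group is 1 pooled library and the intervals cover counting error only.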

How the results depend on the processing

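At 2 months the counts of genes below 0.5 and above 2 were 3405 and 2616, and the lower count was 1722 after the GC trend, 1665 after GC and length trends and 1767 with the mean GC of all transcripts (chosen after seeing the data). The higher count was 1724 with at least 100 reads and 1687 with the whole interval beyond 2-fold (chosen after seeing the data). At 6 months the counts were 3794 and 2579, the lower count being 1983, 1968 and 2021 under the same 3 trends and the higher count 1686 by the interval. Of all genes past 2-fold, 43.4% were higher at 2 months and 56.5% after the GC trend, and at 6 months 40.5% and 51.9%. Between controls the counts were 703 and 1364, with 1543 and 2543 without a minimum of reads, 259 and 691 at 100 reads and 281 and 632 by the interval. Of the 10 regulators, 1 was below 0.5 and 1 above 2 at 2 months after GC and length trends, beside 1665 and 2162 of 14976 genes. With the mean GC 2 were below 0.5, beside 1767 of 14976 genes. At 6 months 1 was above 2 under each of the 3 trends, beside 14.2% of all genes after the GC trend. Against the 2-month control 1 was below 0.5, a setting whose share over all genes is not given. The ratio of *Mbnl1* changed side at 2 months to 1.09 (GC) and 1.26 (GC and length), and at 6 months to 1.34, 1.43 and, with the mean GC, 1.04, and that of *Qk* at 6 months to 1.18, 1.29 and 1.13. Under the same 3 trends *Celf2* changed side at 2 months to 1.70, 2.10 and 1.44 and *Ptbp1* to 0.899, 0.872 and 0.810, and with the mean GC *Mbnl2* did at 6 months to 1.21 and *Ptbp1* to 0.947. In the fit over both ages *Mbnl1* changed side to a log2 difference of 0.27 and 0.42 under the GC and the GC and length trends, *Celf2* from -0.17 to 1.04 and 1.25 and *Ptbp1* from 0.43 to -0.05 and -0.08. This fit called 2595 genes lower and 1637 higher, and 0 and 0 without a mean trend, after the GC trend and after both trends, with 0 of the 10 regulators each time. At an unadjusted p below 0.05 limma then had 3448 lower and 2517 higher, 1822 and 2007, and 1771 and 2039. The cause was not tested. edgeR called 2521 and 1637 and DESeq2 2988 and 2190, each with 6 of the 10 lower. Leaving out a library gave 483 to 1998 lower, 303 to 1107 higher and 0 to 5 of the 10. Over all settings the adjusted p ranged from 2.0e-05 to 0.97 for *Qk*, 5.0e-04 to 0.42 for *Mbnl1*, 2.5e-04 to 0.20 for *Rbfox1*, 0.0048 to 0.10 for *Rbm24*, 0.0064 to 0.39 for *Celf1* and 0.0088 to 0.19 for *Mbnl2*. No paired analysis was possible because each group is 1 library without a replicate number, and age is already in the model. Each of the 10 had at least 245 reads in every library, and the spread between pools could not be measured.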

Other observations

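The core spliceosome factors, plotted as core splice site factors, include U2AF, SF1 and SF3 proteins, which recognise splice sites, and tri-snRNP and NTC proteins such as PRPF8 and PRPF19, which act later. All 19 were measured, with median ratios of csPIMT-/- over control of 1.01 at 2 months and 1.16 at 6 months, and 3 were lower and 0 higher by limma, near the 17.5% of all genes that were lower. The 3 lowest by mean ratio were *Cdc5l*, with ratios of 0.474 and 0.342, *Sf3b1*, the branch point factor, with 0.364 and 0.481, and *Prpf3*, with 0.523 and 0.487. *Prpf19* stood highest by mean ratio at 1.72 and 1.5 and did not pass the test (log2 difference 0.68, limma adjusted p = 0.067). After the GC trend was subtracted the medians were 0.798 and 0.984. *Sf3b1* then had ratios of 0.781 and 1.18, *Cdc5l* of 0.624 and 0.462 and *Prpf3* of 0.659 and 0.621. The list was not tested against the others.

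Of 8 kinases that phosphorylate SR proteins or spliceosome components 4 were lower and 0 higher by limma, beside 17.5% and 11.0% of all genes, with median ratios of 0.532 and 0.454, and of 1.05 and 0.722 after the GC trend. *Prpf4b* was lowest at 0.130 and 0.172, followed by *Clk1* at 0.206 and 0.209. *Clk3*, which belongs to the same family as *Clk1*, had ratios of 1.34 and 1.65 and did not pass (log2 difference 0.57, limma adjusted p = 0.11). Subtracting the GC trend gave ratios of 0.571 and 0.628 for *Clk1* and of 1.06 and 1.23 for *Clk3*.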
